A study of Homo sapiens with 17 samples.

Results

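The regions described here are the *Hin*dIII fragments that promoters contacted in primed human pluripotent stem cells (PSCs) of the embryonic stem cell line H9 NK2, and the question was how much H3K4me1 they carried compared with uncontacted sequence at the same distance on the other side of the same promoter. Members were the non-bait fragments of interactions within a chromosome and up to 1 Mb long in the primed Promoter Capture Hi-C (PCHi-C) list. They were 49579 of the 88413 fragments in the naive and primed lists together, and took part in 73433 contacts from 10755 baits. For each contact a window of the same length was placed at the same distance on the opposite side of the bait. The window was kept if it overlapped no fragment of the primed list, which left 54937 pairs of a contacted fragment and a mirrored window, from 41268 fragments and 9676 baits. Of the other contacts, 18414 had a window that overlapped a listed fragment and 82 had a window that ran off the chromosome.

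PCHi-C joins and captures DNA ends that lie close to baited promoters in fixed nuclei. Its primed list combines 2 replicates of primed PSCs and keeps the contacts that CHiCAGO scored 5 or higher, a score that rises with the reads a pair has above the background for its distance. H3K4me1 was measured by CUT&RUN, in which an antibody directs a nuclease to cut out the DNA around a histone mark, in 3 primed and 2 naive libraries. Both cell types are forms of H9 NK2 grown at 5% O2, primed PSCs in TeSR-E8 medium on Vitronectin and naive PSCs on Matrigel with PD0325901, CHIR99021, LIF and Go6983, which inhibit MEK, GSK3 and PKC or, for LIF, activate STAT3. Everything comes from 1 cell line, and the study's methods speak of biological replicates while the labels do not tie libraries to separate cultures, so p-values measure the spread between these libraries, which may in part be technical. The libraries are bulk, and a mark in fewer cells and less of it per cell cannot be told apart.

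H3K4me1 is deposited by the methyltransferases MLL3 and MLL4 and marks enhancers, both active ones and ones that are primed for later use, and the flanks of active promoters. Enhancers can act on promoters far away along the chromosome, and chromatin looping brings the distant sequence close to its promoter. In pluripotent cells, genes such as *SOX2* are controlled by enhancers at long range, while many developmental genes are held in long-range contacts between chromatin domains marked by Polycomb.

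A few examples show the sequence behind the values. The pairs with the largest difference in H3K4me1 had baits at *ZNF217*, a zinc finger repressor, and *SIX3*, a homeodomain factor of the forebrain and eye. The part of each contacted fragment that lies in its highest tile (500 bp, by the mean over the 3 primed libraries) is followed by the mirrored bases. The fragments contacted by the most baits lay in the protocadherin cluster, which encodes neuronal adhesion proteins, and 286 and 300 bases from within their highest tiles are shown last. All are GRCh38, plus strand, 5′ to 3′, and capitals mark matches to the motifs given further on.
*ZNF217* contacted, chr20:53865382-53865500: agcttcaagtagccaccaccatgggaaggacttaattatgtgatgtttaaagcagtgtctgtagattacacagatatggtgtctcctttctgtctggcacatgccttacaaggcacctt
*ZNF217* mirrored, chr20:53353554-53353672: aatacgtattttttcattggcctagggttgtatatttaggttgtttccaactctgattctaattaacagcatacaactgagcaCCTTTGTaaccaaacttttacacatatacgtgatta
*SIX3* contacted, chr2:44778077-44778260: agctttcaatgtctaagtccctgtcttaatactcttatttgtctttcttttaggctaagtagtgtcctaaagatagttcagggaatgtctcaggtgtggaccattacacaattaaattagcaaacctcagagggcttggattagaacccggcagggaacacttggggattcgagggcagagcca
*SIX3* mirrored, chr2:45103585-45103768: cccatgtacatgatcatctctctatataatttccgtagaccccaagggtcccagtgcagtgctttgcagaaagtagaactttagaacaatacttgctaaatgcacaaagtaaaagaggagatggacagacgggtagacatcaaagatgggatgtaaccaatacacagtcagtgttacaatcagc
*PCDHB8* and *PCDHB16* contacted, chr5:141182101-141182386: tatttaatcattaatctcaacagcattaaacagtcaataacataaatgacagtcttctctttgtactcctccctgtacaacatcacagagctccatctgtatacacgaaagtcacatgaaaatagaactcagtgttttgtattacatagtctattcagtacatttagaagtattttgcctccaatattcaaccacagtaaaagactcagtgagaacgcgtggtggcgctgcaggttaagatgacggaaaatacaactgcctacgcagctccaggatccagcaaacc
*PCDHB1-AS1* contacted, chr5:141089101-141089400: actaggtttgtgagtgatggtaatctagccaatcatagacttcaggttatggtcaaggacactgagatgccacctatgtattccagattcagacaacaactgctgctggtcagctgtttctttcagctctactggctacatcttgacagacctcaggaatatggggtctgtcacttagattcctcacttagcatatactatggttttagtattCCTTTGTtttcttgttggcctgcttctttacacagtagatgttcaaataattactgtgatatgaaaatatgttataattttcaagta
The *ZNF217* and *SIX3* fragments overlapped no annotated gene. The *ZNF217* window lay in *TSHZ2* outside its exons and the *SIX3* window between genes. The protocadherin fragments overlap *PCDHB8* and *PCDHB16*, and the antisense gene *PCDHB1-AS1*. The tile under the *ZNF217* sequence had log2 RPM values of 2.31, 1.41 and 1.69 in primed libraries 1, 2 and 3, and its mirrored tile -3.30, -2.98 and -4.89. The tile under the *SIX3* sequence had 1.71, 1.66 and 2.04, against -3.15, -2.98 and -4.73 at the mirrored place. The protocadherin tiles were low in the primed libraries although they had the highest mean of their fragments. Their values were -1.56, -2.98 and -1.93 for *PCDHB8* and *PCDHB16* and -2.15, -1.98 and -3.73 for *PCDHB1-AS1*.

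Values are log2 RPM, reads scaled to a library of 1e+06, per 500 bp tile and averaged over the bases of each fragment or window. The primed libraries held 8.85, 7.89 and 26.6 M reads, and 51.9%, 42.0% and 15.3% of all tiles were empty. An empty tile was written as 0.9 reads, so the lowest possible value depends on depth and was -3.30, -3.13 and -4.89. A tile above 0, or 1 RPM, is called marked below, and 6.77%, 4.37% and 4.07% of all tiles were. Means of H3K4me1 and shares with a marked tile, transcript start, gene or motif are taken over pairs unless stated otherwise. A fragment in several pairs counts in each of them. As a check of the labels, H3K4me1 within 5 kb of the transcript starts of naive marker genes was higher in both naive than in all 3 primed libraries for 21 of 23 genes, and at primed marker genes it was higher in all primed libraries for 14 of 22 genes and in both naive libraries for 1.

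Contacted fragments carried more H3K4me1 than mirrored windows in every primed library. Their mean was -2.19 in library 1, -2.15 in library 2 and -2.39 in library 3, against -2.47, -2.29 and -2.72 in the windows. The levels overlap between libraries, so the comparison was made within each library. The difference was 0.28, 0.15 and 0.34, or 0.25 ± 0.10 (SD, n = 3 libraries). It was above 0 in 3 of 3 libraries, with p = 0.25 in a two-sided exact sign-flip permutation test, which is the smallest p that 3 libraries allow. Summed over all pairs, with empty tiles at 0, the fragments held 1.28, 1.15 and 1.20 times the reads of the windows.

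Most contacted fragments were not strongly marked. A marked tile touched 28.9%, 22.8% and 19.1% of the contacted fragments and 20.2%, 17.3% and 13.1% of the windows. The contacted fragment was the higher of its pair in 56.1%, 55.2% and 58.2% of pairs and the window in 40.5%, 43.5% and 41.6%, the rest being equal. In 22187 pairs (40.4%) the fragment was higher in all 3 libraries, and in 14733 (26.8%) it was lower in all 3.

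**Figure D1:**
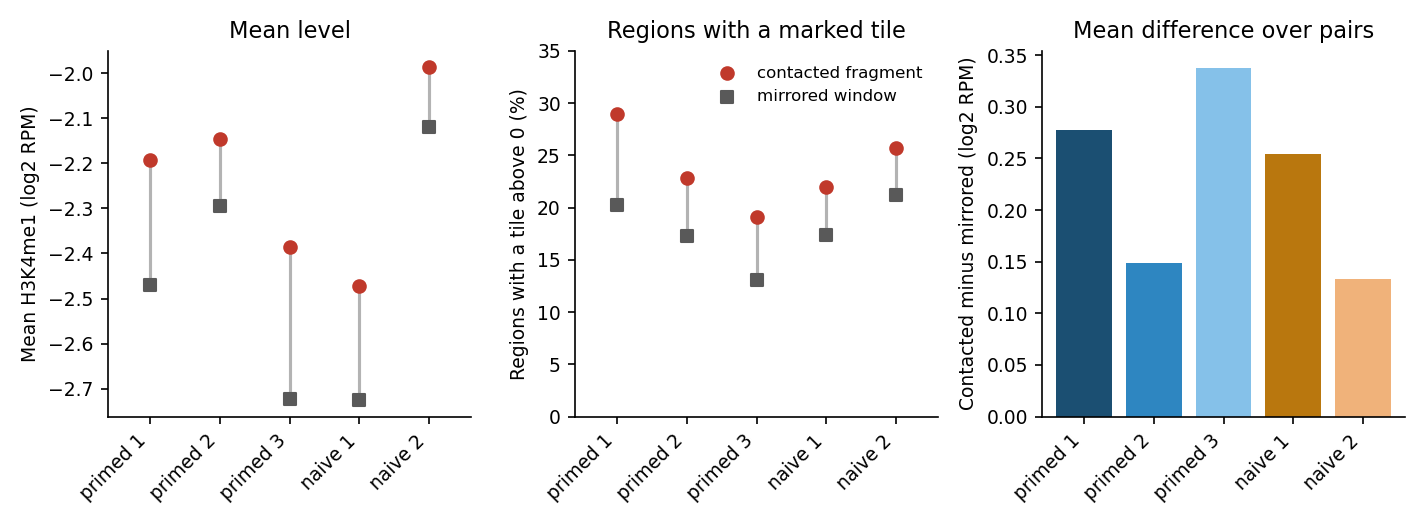
Mean H3K4me1 in log2 RPM (left), the percentage of regions with a tile above 0 (middle) and the mean difference over pairs in log2 RPM (right) for 54937 pairs of a contacted fragment and a mirrored window in each library. The contacted fragments lie above the windows in all 3 primed libraries, by 0.15 to 0.34, and in both naive libraries.

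Pair by pair, limma called 13733 pairs higher at the contacted fragment, 25% of the 54937 tested, and 8377 lower, 15.2%, at a Benjamini-Hochberg adjusted p under 0.05. The calls depended on the library with the most reads: without library 3 there were 3164 and 1853, and without library 1 there were 9169 and 5455. A fragment can be in several pairs, and 59.4% of the pairs had a fragment that abuts another fragment contacted by the same bait, so the calls are not independent of each other. The median fragment was 2424 bp long, but 8.85% were shorter than a tile and share their value with neighbouring sequence.

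The excess was centred on the contacted fragments. At the centre of the fragments the mean was -2.22, -2.16 and -2.41 in libraries 1, 2 and 3, which was 0.26, 0.14 and 0.32 above the centre of the windows. At 5 kb towards the bait the excess was 0.13, 0.09 and 0.20, and at 5 kb away from the bait 0.11, 0.07 and 0.19. At 25 kb towards the bait it was 0.07, 0.04 and 0.11. At 25 kb away from the bait it was -0.03, -0.00 and 0.05, so that only library 3 still had an excess there. The flanks of the fragments were therefore uneven, with more H3K4me1 on the side of the bait. The windows showed a shallow dip at their centre, from -2.42 at 25 kb towards the bait to -2.48 in library 1, from -2.25 to -2.30 in library 2 and from -2.65 to -2.73 in library 3. Their flanks, unlike the windows themselves, were free to overlap listed fragments.

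**Figure D2:**
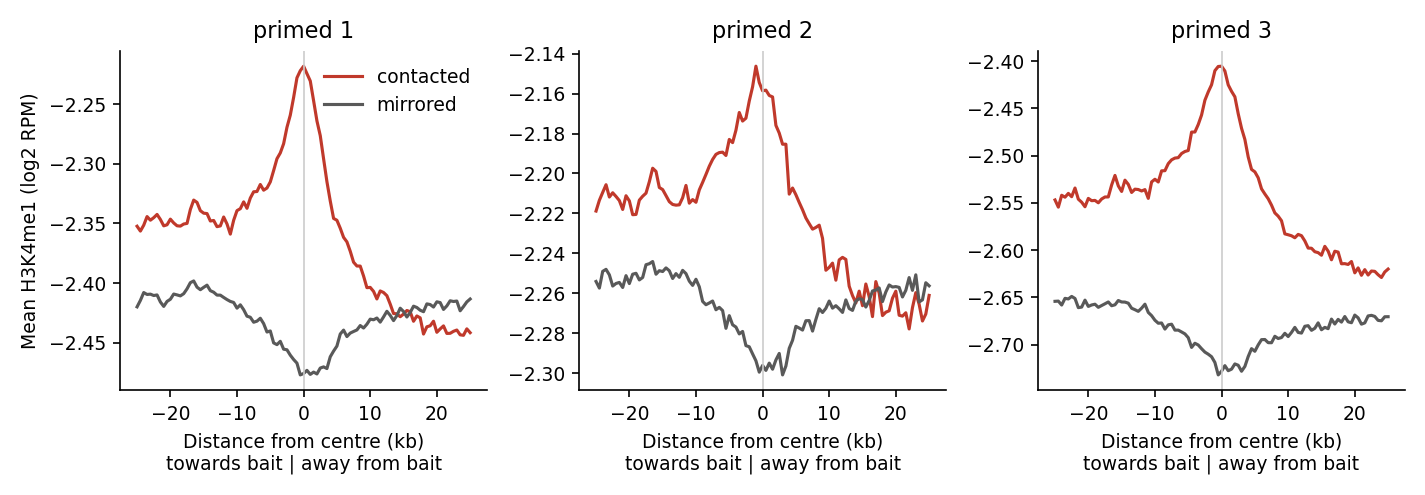
Mean H3K4me1 in log2 RPM against distance from the centre in kb, towards the bait on the left and away from it on the right, for contacted fragments and mirrored windows in each primed library (the vertical axes differ). The contacted fragments peak at the centre, 0.14 to 0.32 above the windows, and the excess is larger towards the bait than away from it.

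The difference was larger for contacts with a higher CHiCAGO score. It was 0.21 ± 0.09 at scores of 5 to 6, 0.23 ± 0.09 at 6 to 8, 0.31 ± 0.11 at 8 to 12 and 0.40 ± 0.12 at 12 and above (SD, n = 3 libraries). The order was the same in each of the 3 libraries, although the lowest classes were nearly alike. From the lowest to the highest class the difference grew by 0.20, 0.14 and 0.21, with an exact sign-flip p of 0.25, the smallest possible. The windows had a mean of -2.50 in both the lowest and the highest class, whereas the contacted fragments went from -2.28 to -2.10. Calls of a higher fragment went from 23.4% to 29.6% and calls of a lower one from 15.8% to 13.1%. Within classes of distance and number of baits the growth was 0.10 (0.07 to 0.12 over libraries), above 0 in 3 of 3 libraries but smaller than over all pairs. It is an equal mean of 22 combined classes, of which 16 were above 0.

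By distance the difference was highest between 50 and 100 kb. It was 0.31 ± 0.12 up to 50 kb, 0.45 ± 0.11 at 50 to 100 kb, 0.33 ± 0.09 at 100 to 200 kb, 0.22 ± 0.10 at 200 to 500 kb and 0.21 ± 0.09 at 500 to 1000 kb. In each library 50 to 100 kb was the highest class on this log2 RPM scale and 500 to 1000 kb the lowest. In summed reads 50 to 100 kb was also the highest, at 1.53 ± 0.17 times the windows, but 200 to 500 kb was the lowest, at 1.14 ± 0.05 times against 1.20 ± 0.05 times at 500 to 1000 kb. From the nearest to the farthest class the difference in log2 RPM changed by -0.16, -0.05 and -0.07, a mean of -0.10. The mean change was -0.15 without transcript starts within 1 kb and also -0.15 with each fragment counted once, below 0 in 3 of 3 libraries both times. Within classes of score and number of baits the mean change was -0.01 with 2 of 3 libraries above 0 (exact p = 1), so the sign differed between libraries. That mean weighs 15 combined classes equally, and 4 of the 15 were above 0. The levels of fragments and windows were lower at the far end, at -2.03 and -2.35 up to 50 kb and -2.38 and -2.59 at 500 to 1000 kb.

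The order by score was not the same at all distances, and that difference was not tested. Among contacts of 500 to 1000 kb, those with a score of 12 and above had a difference of 0.44 ± 0.14 and 1.60 ± 0.14 times the reads of their windows (1475 pairs), against 0.15 ± 0.08 and 1.15 ± 0.03 times (4407 pairs) at scores of 5 to 6. Among contacts of 50 to 100 kb the order was the opposite, 0.16 ± 0.04 at the highest scores (153 pairs) and 0.47 ± 0.12 at the lowest (1044 pairs). At the distance limit, contacts of 800 to 1000 kb had a difference of 0.29 ± 0.11 (2761 pairs), and contacts of 1000 to 1200 kb, which are not members, had 0.18 ± 0.08 (1548 pairs).

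The difference had no steady order with the number of baits that contact a fragment. Fragments with 1, 2 or 3 baits had differences of 0.25 ± 0.09, 0.25 ± 0.09 and 0.24 ± 0.11. Fragments with 4 to 5 baits had 0.34 ± 0.12 (1470 fragments, 4321 pairs) and were the highest class in every library. Those with 6 and more had 0.24 ± 0.13 (519 fragments, 2023 pairs). The last class minus the first was -0.01, with libraries between -0.05 and 0.02 and an exact sign-flip p of 1. Where no transcript start lay within 1 kb of the fragment or the window, this change was 0.13 and above 0 in 3 of 3 libraries (0.06 to 0.20, exact p = 0.25), and within classes of distance and score it was -0.10, below 0 in 3 of 3. The latter mean weighs 17 combined classes equally, however, and 9 of the 17 were above 0, so it gives no common direction. Fragments with 6 and more baits were often near promoters themselves. A transcript start lay within 1 kb of the fragment in 41.4% of their pairs and of the window in 26.5%. At fragments with 1 bait these shares were 19.6% and 16.6%.

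**Figure D3:**
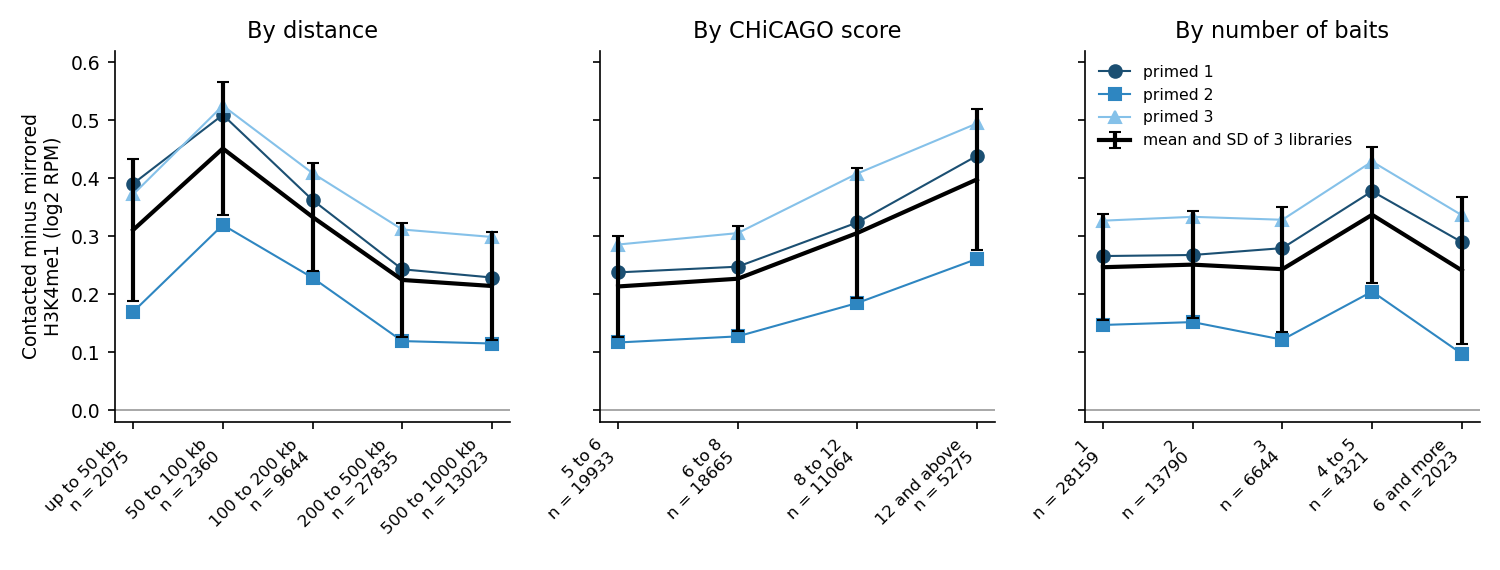
Difference in H3K4me1 (contacted minus mirrored, log2 RPM) by distance, CHiCAGO score and number of baits, with n pairs under each class. Thin lines are the 3 primed libraries and the thick line is their mean with SD. The difference peaks at 50 to 100 kb, rises with the score in each library and is nearly level for 1 to 3 baits.

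The difference was also present away from promoters. A GENCODE transcript start lay within 1 kb of 22.5% of the fragments (95% Wilson interval 22.2 to 22.9) and 17.9% of the windows (17.6 to 18.2). An exon overlapped 34.7% of the fragments and 25.6% of the windows, and a gene 73.3% and 68.0%. These intervals cover counting error only and treat overlapping pairs as separate. In the 35789 pairs without a transcript start near either side, the difference was 0.29 ± 0.10, and 25.3% were called higher and 14.4% lower. With a start near the fragment only it was 0.35 ± 0.10, with a start near both 0.12 ± 0.06, and with a start near the window only 0.02 ± 0.07, where libraries 1 and 3 were above 0 and library 2 below. Where neither side overlapped a gene the difference was 0.39 ± 0.13 (5119 pairs), and where both did 0.20 ± 0.08 (27807 pairs).

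The difference was larger downstream of the promoter and inside the baited gene. For baits whose protein-coding starts are all on 1 strand, fragments downstream of the promoter had a difference of 0.33 ± 0.11 (18359 pairs) and fragments upstream 0.23 ± 0.10 (18620 pairs), with downstream the higher in each of the 3 libraries. Fragments inside the baited gene, with their window outside it, had 0.55 ± 0.16 and 1.60 times the reads (1.42 to 1.81 over libraries, 4303 pairs). In the opposite case, with the window inside the baited gene, the contacted fragment was still higher by 0.17 ± 0.06 (1503 pairs). The 48512 pairs with neither side in the baited gene had 0.23 ± 0.09. By chromosome, the mean difference was above 0 in all 3 libraries on 21 of 23 chromosomes and ran from -0.02 on chromosome 21 to 0.49 on chromosome 13.

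Contacted fragments had a GC content of 40.7% and windows 42.1%, and the fragments held 9.63 CpG per kb against 10.4. Pairs called higher had 42.6% at the fragment and 41.0% at the window, and pairs called lower had 39.8% and 44.6%. Where both sides had a GC content within 2 percentage points of each other, the difference in H3K4me1 was 0.31, with libraries between 0.21 and 0.40.

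The motifs searched on both strands were ATGCAAAT (the octamer bound by OCT4), ACAAAGG (a SOX-type site) and CAGGGGGC (part of the CTCF motif). None of them contains another. At least 1 ATGCAAAT lay in 22.5% of the fragments and 24.2% of the windows, ACAAAGG in 40.6% and 41.4%, and CAGGGGGC in 8.84% (95% Wilson interval 8.60 to 9.08) and 8.81% (8.57 to 9.05). For CAGGGGGC the intervals overlap. In pairs called higher CAGGGGGC lay in 11.7% of the fragments and 7.12% of the windows, and in pairs called lower in 7.01% and 12.4%, so the higher side held it more often in both sets. That side also had the higher GC content in both sets, and the shares of this GC-rich motif were not matched for GC content. A *Hin*dIII site, AAGCTT, lay in none of the fragments, as the digest requires, and in 47.6% of the windows, which are therefore not *Hin*dIII fragments. Of the sequences printed above, the *ZNF217* window and the *PCDHB1-AS1* fragment each held 1 ACAAAGG, and the other 4 held none of the motifs.

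Hi-C of primed PSCs, made without capture, was used to check the label of contacted. PCHi-C is captured from Hi-C libraries, and fragments and windows were told apart by the PCHi-C list. The Hi-C contrast was therefore fixed in part by the choice of pairs and is not separate evidence of contact. Pairs of 100 kb bins at 100 kb to 1 Mb held 2.70 times as many di-tags between bait and contacted fragment as between bait and mirrored window (medians 237 and 63, 50502 pairs), and the contacted side had more in 90.8% of pairs. The ratio was 1.83 at 100 to 200 kb, 2.97 at 200 to 500 kb and 4.67 at 500 to 1000 kb. The bins are far larger than the fragments and are shared by many pairs, and a single library gives no replicate error. The contrast in Hi-C thus grew with distance, which was not tested, while that in H3K4me1 was largest at 50 to 100 kb.

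The naive libraries showed a contrast at the same primed contacts. Their differences were 0.25 in naive library 1, within the primed range of 0.15 to 0.34, and 0.13 in naive library 2, below it. These libraries differ in depth, with 21.8 and 6.74 M reads and 21.2% and 52.3% of tiles empty. In summed reads the fragments held 1.14 and 1.13 times the reads of the windows, both below the 3 primed libraries (1.15 to 1.28), and with the libraries thinned to similar depth the naive differences were 0.13 to 0.15 and the primed ones 0.15 to 0.26. The primed mean exceeded the naive mean by 0.06, with a two-sided exact permutation p of 0.4 over the 10 ways to assign 3 of 5 libraries, where the smallest possible p is 0.1. On summed reads the primed excess was 0.09 as a log2 ratio (exact permutation p = 0.2), and on thinned libraries 0.06 (exact permutation p = 0.3). Pairing libraries 1 and 2 of each cell type by their number, a pairing that rests on the number alone, gave 0.02 (0.02 for both pairs, exact p = 0.5). At the 30306 contacts listed in primed PSCs only, the primed difference was 0.22 ± 0.10 and the naive libraries had 0.19 and 0.10. At the 24631 contacts that the naive list also holds, the primed difference was 0.30 ± 0.10 and the naive libraries had 0.33 and 0.18. At the contacts that the naive list lacks, both naive libraries were thus also above 0, and the primed excess there, 0.07 log2 RPM, had an exact permutation p of 0.4. On summed reads it was 0.12 as a log2 ratio (exact permutation p = 0.2), with the naive libraries at 0.13 and the primed libraries between 0.16 and 0.33, so that the cell types did not overlap on this scale. Fragments and windows were, however, chosen by the primed list only. Of all 54937 pairs, 50712 had a window that overlapped no fragment of either list, and the other windows overlapped naive-list fragments. This choice can itself favour a primed excess, so the comparison cannot separate it from the cell type.

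Genes were grouped by the promoter on the bait, and lists overlap where a gene is in both (*TBX3* is a naive marker and a T-box gene). Against a background of 25% called higher and 15.2% called lower, contacts of core pluripotency genes had 27 of 45 pairs higher and 3 lower, with a median difference of 1.27 against 0.20 over all pairs. In reads summed over the list the contrast was 1.33, 1.20 and 1.23 times in libraries 1, 2 and 3. That is close to the 1.28, 1.15 and 1.20 times over all pairs. Contacts of naive marker genes had 24 of 47 higher and 0 lower (median 0.98), those of primed marker genes 96 of 220 higher and 22 lower (median 0.60), and those of the NODAL pathway 12 of 33 higher and 3 lower (median 0.76). Only 6 of 18 core pluripotency, 6 of 24 naive marker, 15 of 22 primed marker and 7 of 14 NODAL pathway genes had usable pairs. Of the 45 core pluripotency pairs, 22 were of *SOX2* (13 called higher) and 15 of *LIN28B* (10 called higher). *TFAP2C* gave 24 of the 47 naive marker pairs (15 called higher). Pairs of 1 gene are not replicates, so these 2 lists mostly show these genes.

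Larger families split in direction, again beside 25% called higher and 15.2% called lower over all pairs. Contacts of developmental homeobox and T-box genes, a list by symbol that also takes in PAX and GATA genes, had 397 of 957 pairs called higher and 100 lower (median 0.73, medians of 0.78, 0.41 and 0.95 in libraries 1, 2 and 3), and contacts of the histone genes on chromosome 6 had 51 of 128 higher and 13 lower (median 0.87). Contacts of ribosomal protein genes had 43 of 163 higher (26.4%) and 33 lower (20.2%), with a median difference of 0.47 and 1.15, 0.93 and 1.06 times the reads of the windows in libraries 1, 2 and 3. Contacts of protocadherins had 38 of 250 higher (15.2%) and 64 lower (25.6%), with a median difference of -0.12. Those of keratins had 42 of 265 higher (15.8%) and 79 lower (29.8%), with a median of -0.30. Those of olfactory receptors had 60 of 758 higher (7.92%) and 148 lower (19.5%). Their median was -0.03, with 0, 0 and -0.07 in libraries 1, 2 and 3, so the typical olfactory receptor pair hardly differed. In these 3 families the reads at the contacted fragments were fewer than in the windows in every primed library, 0.71 to 0.78 times for protocadherins, 0.59 to 0.66 times for keratins and 0.62 to 0.72 times for olfactory receptors. Each family lies in 1 or a few gene clusters, so its pairs share baits, fragments and surroundings. Zinc finger genes on chromosome 19 had 19 of 131 higher (14.5%) and 20 lower (15.3%).

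**Figure D4:**
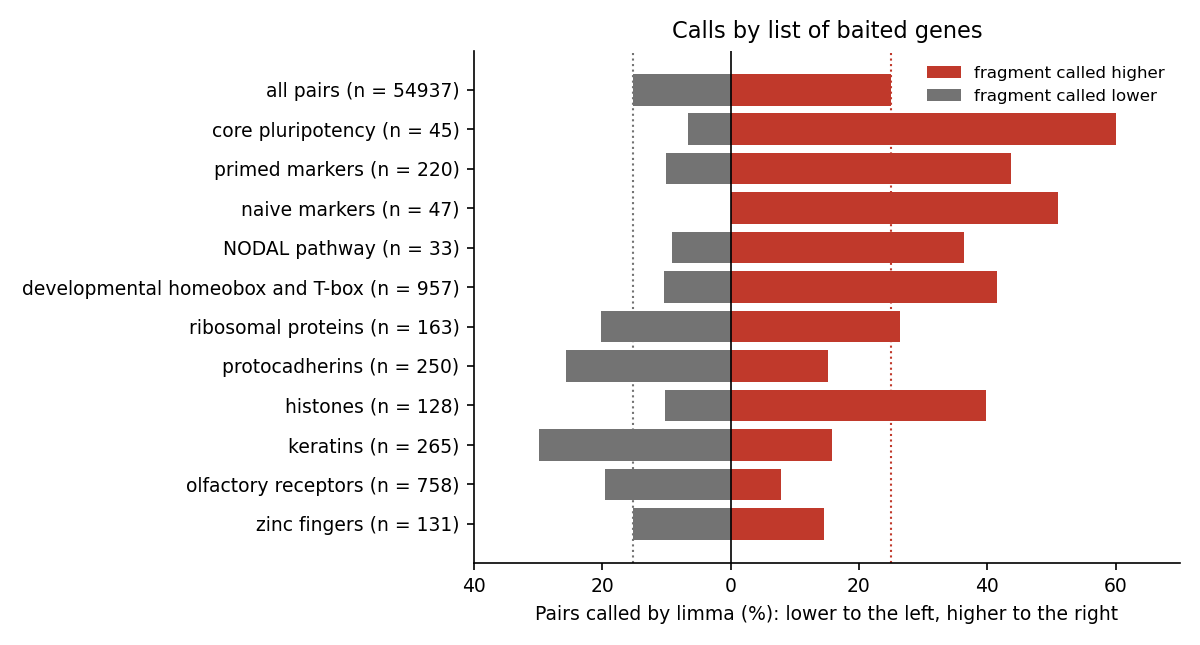
Percentage of pairs that limma called higher (right) or lower (left) at the contacted fragment, by list of baited genes, with n pairs. Dotted lines are the background over all pairs, 25% and 15.2%. Pluripotency, marker and developmental lists lie beyond the background on the right, and protocadherins, keratins and olfactory receptors lie beyond it on the left. Ribosomal proteins lie near it on the right, at 26.4%, and beyond it on the left, at 20.2%.

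Of 17 genes in the pluripotency, marker and NODAL lists with at least 5 usable pairs, 14 had a median difference above 0 in all 3 primed libraries, 0 had one below 0 in all 3, and 3 were mixed. The counts of calls per gene below stand against 25% called higher and 15.2% called lower over all pairs. *SOX2*, a core pluripotency factor, contacted 22 usable fragments 405 to 966 kb away, 21 of them on its higher-coordinate side. Their median level was -1.10, -1.64 and -1.29 in libraries 1, 2 and 3, against -3.24, -2.83 and -3.04 in the windows. Fragments lay above windows in each library, with 5.19, 3.68 and 3.88 times the reads, and limma called 13 of the 22 higher and 0 lower. *LIN28B*, which blocks maturation of let-7, had 10 of 15 fragments called higher and 0 lower, with median levels of -1.35, -2.01 and -1.76 against -3.22, -2.88 and -3.32.

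Among primed marker genes, *ZIC2* and *ZIC5* share a bait, and 10 of its 11 fragments were called higher. These zinc finger factors of the neural plate had the highest fragments of the named primed markers in each library, with median levels of 0.88, -0.04 and 0.48 against -1.32, -2.11 and -1.16. *KLF7* had 14 of 24 higher and 0 lower and a median difference of 1.43, 0.84 and 1.45. *TCF4*, a basic helix-loop-helix factor, had 5 of 10 higher and 1 lower. *ETV5*, an ETS factor downstream of FGF, had 6 of 11 higher and 1 lower, and *SPRY4*, an FGF feedback inhibitor, 5 of 11 higher and 2 lower. The FGF-ERK phosphatases *DUSP4* and *DUSP6* had as many or nearly as many lower as higher, 6 and 6 of 39 and 9 and 7 of 33, and medians between -0.22 and 0.00 in all primed libraries. The share called higher was 15.4% at *DUSP4* and 27.3% at *DUSP6*, the latter near the 25% over all pairs. Summed reads were 0.44 to 0.59 times those of the windows at *DUSP4* and 1.33 to 1.49 times at *DUSP6*. *VIM*, the intermediate filament vimentin, had 13 of 36 higher and 0 lower, with all 36 fragments on its lower-coordinate side at 264 to 401 kb.

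Naive marker genes with primed contacts showed the same direction. *TFAP2C*, an AP-2 factor of naive cells and trophoblast, had 15 of 24 fragments called higher and 0 lower, at median levels of -2.06, -1.97 and -1.99 against -3.29, -2.92 and -3.83. The fragments were thus above their windows without being strongly marked. *TBX3* had 5 of 8 higher and 0 lower, with a median difference of 2.18, 2.37 and 2.61. *YPEL2* had 1 of 9 higher and 0 lower, with medians of 0.32, 0.67 and 1.16. In the NODAL pathway, the inhibitors *LEFTY1* and *LEFTY2* had 5 of 9 and 2 of 8 higher, with 1 and 0 lower, and the receptor *ACVR2A* had 2 of 8 higher and 1 lower with medians of 0.30, -0.05 and -0.27. At *LEFTY2* and *ACVR2A* the share called higher was thus 25%, the same as over all pairs.

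**Figure D5:**
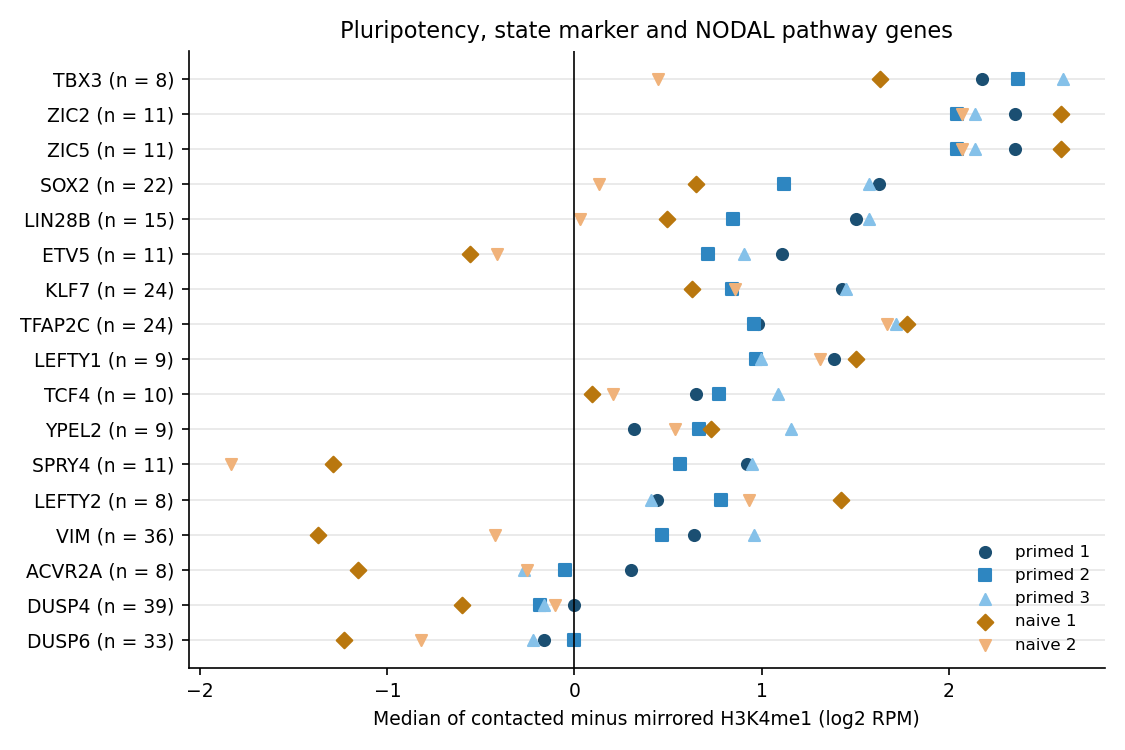
Median difference in H3K4me1 (contacted minus mirrored, log2 RPM) over the usable pairs of each gene, with n pairs, in 3 primed and 2 naive libraries. ZIC2 and ZIC5 share their pairs. The primed points lie above 0 for 14 of 17 genes, and for ETV5, SPRY4 and VIM the naive points lie below 0.

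The pairs with the largest difference joined almost unmarked windows to strongly marked fragments. For *ZNF217*, 256 kb from its bait, the fragment whose sequence is given above had 2.26, 1.37 and 1.72 against -3.30, -2.98 and -4.89, a difference of 5.51 ± 0.47 (SE, limma adjusted p = 0.00149). For *SIX3*, 163 kb away, it had 1.71, 1.66 and 2.04 against -3.15, -2.98 and -4.73, a difference of 5.42 ± 0.48 (limma adjusted p = 0.00149). Fragments and windows did not overlap in level in either pair, as the choice of the largest called differences requires. The others were at *VIM* (5.27, a fragment in *CUBN*, 361 kb away), *NTS*, which encodes neurotensin (5.26), and *LAPTM4B* (5.26, a fragment at *RPL30* and *MATN2*). These values depend on the depth, since each window held at most 1.81 reads in any primed library. They also depend on length. The fragments of *ZNF217*, *SIX3*, *VIM* and *NTS* were 169, 184, 399 and 296 bp long, shorter than a 500 bp tile, and that of *LAPTM4B* was 695 bp. Such values rest on very few tiles.

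In the naive libraries these 5 fragments differed from each other. The *ZNF217* fragment had 1.80 and 1.77 and the *LAPTM4B* fragment 1.76 and 1.38, within the range of their primed values. The *SIX3* fragment had -0.12 and -0.43, the *VIM* fragment -1.90 and -1.21 and the *NTS* fragment -2.27 and -2.04, all below their 3 primed values. No test was made on these selected pairs.

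At the opposite end, the fragment was almost empty and the window marked. For *OLFM4*, a secreted glycoprotein of the gut, the fragment 124 kb away had -3.15, -3.01 and -3.69 and the window 2.11, 1.46 and 2.05, a difference of -5.16 ± 0.36 (limma adjusted p = 0.00149). For *SRP14*, a subunit of the signal recognition particle, the fragment in *BUB1B* 143 kb away had a score of 17.65 and 75 reads, the highest of the 10 pairs, but H3K4me1 of -3.30, -3.13 and -4.73 against 1.76, 0.19 and 1.40 in a window in *GPR176*. The others were at *DEFB123* (-5.10), *PTPRN* (-4.89) and *RFLNA* (-4.84). The *SRP14* fragment held 0 H3K4me1 reads in libraries 1 and 2. It was 174 bp long and the *RFLNA* fragment 233 bp, both shorter than a tile.

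Of 1280 baits with a protein-coding gene and at least 10 usable pairs, 662 (51.7%) had a median difference above 0 in all 3 primed libraries and 289 (22.6%) below 0 in all 3. The highest medians were at *SIX3* (3.67, 22 pairs), *PAX6* (3.20, 11 pairs), *KIRREL1* (3.03, 10 pairs), *TRIM71* (2.74, 10 pairs) and *ZFP36L1* (2.69, 12 pairs). *SIX3* and *PAX6* encode homeodomain factors of the eye and *TRIM71* is a stem cell RNA-binding ubiquitin ligase. At *SIX3* the median fragment had 1.17, 0.26 and 0.97 against -2.35, -1.96 and -2.79, with 15 pairs called higher and 5 lower, and all 22 fragments lay on its lower-coordinate side. At *PAX6* it had 0.52, -0.52 and 0.31 against -3.25, -2.97 and -3.33, with 10 of 11 called higher and fragments on both sides. Because the baits were chosen by their medians, the direction of their calls follows from that choice. Over all pairs 25% were called higher and 15.2% lower.

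The lowest medians were at *TCTN3* (-2.86, 15 pairs), *MTCH2* (-2.49, 15 pairs), *RPL7L1* (-2.38, 13 pairs), *SRP14* (-2.21, 32 pairs) and *SAXO1* (-2.14, 10 pairs). At *TCTN3*, a protein of the base of cilia, the fragments had -3.02, -2.92 and -2.46 and the windows 0.22, -0.10 and 0.12, with 13 of 15 called lower and all fragments on the higher-coordinate side. At *SRP14* 22 of 32 were called lower and 4 higher. The direction of these calls likewise follows from choosing the lowest medians. Contacts of 1 bait often lie on 1 side, so the windows of these baits also lie together.

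The fragments contacted by the most baits were poorly marked in the primed libraries. The fragment at *PCDHB8* and *PCDHB16*, contacted by 23 baits, had -3.02, -3.08 and -4.04, against a mean of -2.15, -2.06 and -2.52 over its 9 windows, with 0 pairs called higher and 5 lower. The *PCDHB1-AS1* fragment, contacted by 21 baits, had -3.03, -2.69 and -3.04 against -2.93, -2.54 and -3.27. It was higher in the naive libraries, at -0.90 and -0.55, and so was the *PCDHB8* and *PCDHB16* fragment, at -1.93 and -1.73. The next was a *PCDHB15* fragment with 20 baits (-1.75, -2.19 and -2.51). It was followed by the neighbour of the *PCDHB1-AS1* fragment with 19 baits (-3.30, -2.76 and -2.51). Then came a fragment at *KRT12* with 18 baits (-2.32, -2.44 and -2.27). The neighbour was also higher in the naive libraries, at -0.64 and -0.52. The *PCDHB15* fragment had -1.73 and -1.77 there and the *KRT12* fragment -2.79 and -1.99, which overlapped their primed values.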

How the data were processed

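H3K4me1 CUT&RUN, PCHi-C and Hi-C of H9 NK2 cells were used and grouped by their labels. The NANOG, SOX2 and input libraries and the naive Hi-C were not analysed here. Per the labels, H3K4me1 reads were trimmed (Trim Galore 0.5.0) and aligned to GRCh38 (Bowtie2 2.3.2), and the authors deposited log2 RPM per 500 bp tile. The methods state that reads were extended to 300 bp, and a read over a tile border counts in both tiles. For PCHi-C, the authors deposited the CHiCAGO score and combined read number of each pair. For Hi-C, they deposited di-tag counts per pair of 100 kb bins. Mirrored windows were built on the bait's centre. Pairs were compared with limma 3.58.1 (lmFit on the 3 paired differences, eBayes with trend, Benjamini-Hochberg over all pairs, R 4.3.3), after tests on simulated data. Other comparisons used the means per library with exact permutation tests. Genes come from GENCODE 44, and 76.3% of baits held a protein-coding start. Python 3.11.15, numpy 2.4.6, pandas 2.3.3, statsmodels 0.14.6 and matplotlib 3.10.9 were used. Named were all genes of the pluripotency, marker and NODAL lists with at least 5 pairs, the 5 largest and 5 smallest called pairs, the 5 highest and lowest baits with at least 10 pairs, and the 5 fragments with the most baits. The values of 1 further gene are not reported here. Members, lists and tests were chosen with earlier results of these data known. Alternatives were the scale, the choice of windows and pairs, promoters, the score and leaving out each library.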

Additional observations from a re-analysis of the deposited data

Results flagged for a closer look

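For 3 primed marker genes the contrast between contacted fragments and mirrored windows had opposite signs in the primed and naive libraries, in every library. The difference between the cell types was not tested for single genes, and fragments and windows were chosen by the primed list only. At *SPRY4* (11 pairs) the median difference was 0.92, 0.56 and 0.95 in primed libraries 1, 2 and 3 and -1.29 and -1.84 in naive libraries 1 and 2, so that the primed mean exceeded the naive mean by 2.38. At *VIM* (36 pairs) it was 0.64, 0.47 and 0.96 against -1.37 and -0.43, a gap of 1.59. At *ETV5* (11 pairs) it was 1.11, 0.71 and 0.91 against -0.56 and -0.41, a gap of 1.39. All 3 genes were more marked at the windows than at the fragments in naive libraries, and 17 genes were examined in this way.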

How the results depend on the processing

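Among the alternative values, 76 were labelled as the same, 9 as moved and 2 as reversed. These labels are coarse. Those that moved include a Hi-C median in di-tags set beside a ratio, and limma counts from fewer tested pairs. Those labelled the same include the distance change of -0.01 within classes, where 2 of 3 libraries were above 0. The mean difference in H3K4me1 stayed above 0 in every library under all its alternatives, between 0.16 and 0.38 log2 RPM, and leaving out a library gave 0.21 to 0.31. Thinning the libraries to 7.89 M reads gave 0.21, and the log2 ratio of summed reads 0.27. These, the GC limit and the Hi-C setting of equal bin distance were chosen after seeing the data.

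Leaving out a library gave 3164 to 14228 pairs called higher and 1853 to 8465 lower. Without transcript starts within 1 kb, 8665 were called higher and 4880 lower of 35789 tested. Without the replicate block, in which fragment and window are paired within a library, 14241 and 8745 were called. The change with the number of baits reversed to 0.13 without transcript starts, and leaving out a library gave -0.020 to 0.017. The Hi-C ratio was 3.69 at 300 kb to 1 Mb and 2.79 with the same number of bins on both sides, and the median difference per pair was 152 di-tags. The excess of transcript starts at fragments, 4.64 percentage points, was 3.85 with each fragment counted once. With the numbers of the naive and primed libraries as a replicate block, the primed excess over naive was 0.02 in place of 0.06. It was 0.12 without naive library 1, 0.00 without naive library 2, 0.11 without primed library 2, 0.02 without primed library 3 and 0.09 on summed reads. The causes were not tested. Depth limits the log2 values of weakly marked regions most in libraries 1 and 2, where 51.9% and 42.0% of tiles were empty.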
